A study of Mus musculus with 6 samples.

Results

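The PRDM genes *Prdm6*, *Prdm1*, *Prdm2*, *Prdm4*, *Prdm8*, *Prdm10*, *Prdm15*, *Prdm16*, and *Mecom* were followed in the ductus arteriosus (DA), the fetal artery that joins the pulmonary artery to the aorta. They are the gene deleted in the study, *Prdm6*, and 8 of its paralogs, were chosen by symbol, and are 9 of the 23997 genes with a value in the deposited table. The tissue was dissected from C57BL/6 embryos at E17.5 and examined by bulk RNA-Seq, with 3 libraries labelled WT and 3 labelled *Prdm6fl/fl SM22-Cre*, numbered 0, 1, and 2 in each group. In the *Prdm6fl/fl SM22-Cre* embryos, Cre is expressed under the promoter of SM22 (*Tagln*), which is active in smooth muscle cells (SMCs) and also in early heart muscle, and removes floxed *Prdm6* there, so other cells of the vessel keep the gene. The WT embryos were littermates. The part of *Prdm6* between the loxP sites and the number of vessels per library are not given in the sources used here. The questions were how much of each PRDM transcript the vessel holds, how far libraries of the same group differ, and whether any paralog stands higher where *Prdm6* is deleted.

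PRDM proteins carry a PR domain, a relative of the SET domain of histone methyltransferases, followed in most members by a row of zinc fingers that bind DNA. Most act as repressors of transcription, some by methylating histones themselves and others by recruiting methyltransferases, deacetylases, or corepressors. PRDM6 is best known from vascular SMCs, where it represses transcription and has been linked to methylation of histone H4. PRDM16 and MECOM are close relatives of each other, and both are known from arterial endothelium and blood stem cells.

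FPKM, the fragments assigned to a gene scaled to transcript length and to the mapped fragments of the library, allows levels of different genes to be set side by side. It holds no read counts, so depth is unknown. The steps between low values put the libraries at 0.930 to 1.19 times the depth of WT library 1. This is a rough guide and rests on 127 genes for WT library 2. That library also listed the most genes at 0, 11886 against 8338 to 10313 in the others. Several libraries stood apart. *Prdm6fl/fl SM22-Cre* library 0 held 81.0 FPKM of *Xist*, the RNA of the inactive X chromosome, together with 26.4 FPKM of the Y-linked *Ddx3y*, whereas each of the other 5 libraries held more than 1 FPKM of at most 1 of the pair. This was *Xist* in WT library 0 and *Prdm6fl/fl SM22-Cre* library 1, and *Ddx3y* in the rest. The summed FPKM of 8 heart muscle genes was 1580 in WT library 1 and 1805 in *Prdm6fl/fl SM22-Cre* library 2, against 57.7 to 414 in the other 4 libraries. That of 6 red blood cell genes was 12638 and 24357 in *Prdm6fl/fl SM22-Cre* libraries 0 and 1, against 3863 to 7581 in the others. WT library 2 listed at 0 a total of 563 genes that exceeded 1 FPKM in all 5 others (5.25% of such genes), against at most 45 in any other library, so a 0 there can be a failed estimate. The 10 SMC markers were all detected, and their summed FPKM was 2505 to 5800 in WT and 937 to 2434 in *Prdm6fl/fl SM22-Cre* libraries. Summed markers of Schwann cells (13.8 to 40.4 FPKM against 47.3 to 171 FPKM) and of neurons (8.61 to 23.7 FPKM against 39.8 to 61.0 FPKM) were higher in every *Prdm6fl/fl SM22-Cre* library than in any WT library. Of single genes, 4 of 8 Schwann cell markers and 3 of 6 tested neuron markers were higher without overlap, beside 1064 of 12955 tested genes. The Schwann cell markers *Mbp* and *S100b* were lower in *Prdm6fl/fl SM22-Cre* library 0 than in any WT library. In bulk tissue, fewer cells of a type and less RNA per cell cannot be told apart, and the part that these differences play in the PRDM values was not tested.

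*Prdm6*, the targeted gene (chromosome 18 of GRCm38, 53463583 to 53575907, plus strand), did not differ between the groups beyond the spread of the libraries. WT libraries 0, 1, and 2 held 41.7, 48.4, and 19.8 FPKM, and the *Prdm6fl/fl SM22-Cre* libraries held 48.6, 27.1, and 15.4 FPKM. The highest value of all belonged to *Prdm6fl/fl SM22-Cre* library 0 and the groups overlapped over most of their range. Taken as *Prdm6fl/fl SM22-Cre* minus WT of log2(FPKM + 0.1), the log2 fold change came to -0.32 (standard error 0.48, 95% interval -1.43 to 0.78, adjusted p = 0.833 from limma over all tested genes). A two-sided exact permutation test gave p = 0.7, and the smallest value it can give with 3 libraries against 3 is 0.1. The direction depended on the libraries used. The log2 fold change was 0.09 without *Prdm6fl/fl SM22-Cre* library 2 and 0.34 without WT library 1 and *Prdm6fl/fl SM22-Cre* library 2, the pair highest in heart muscle transcripts. The FPKM covers the whole gene, of which an unstated part is removed, so the value does not test the labels. By real-time PCR, another measure than FPKM, the paper reported reduced *Prdm6* in the DA and aorta of these mice. Why the FPKM did not separate the groups was not tested.

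By mean level in WT, *Prdm6* and *Mecom* stood together at the top of the 9 genes, *Prdm2* and *Prdm16* followed, *Prdm4*, *Prdm15*, and *Prdm10* lay lower, and *Prdm1* and *Prdm8* were near 0. *Prdm6* averaged 36.6 ± 15.0 FPKM (SD, n = 3) and *Mecom* 32.8 ± 7.12 FPKM (SD, n = 3), and *Prdm6* was the higher of the pair in 2 of 3 WT libraries. Their order is therefore not separated by the data. *Mecom* exceeded *Prdm2* in all 6 libraries, and *Prdm2* exceeded *Prdm16* in all 6 libraries without any overlap of their ranges. The neighbours below, from *Prdm16* to *Prdm8*, overlapped with each other in WT. Of all 23997 genes, 7.62% had a higher mean FPKM over the 6 libraries than *Mecom*, 8.18% than *Prdm6*, 15.5% than *Prdm2*, and 65.7% than *Prdm8*.

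**Figure D1:**
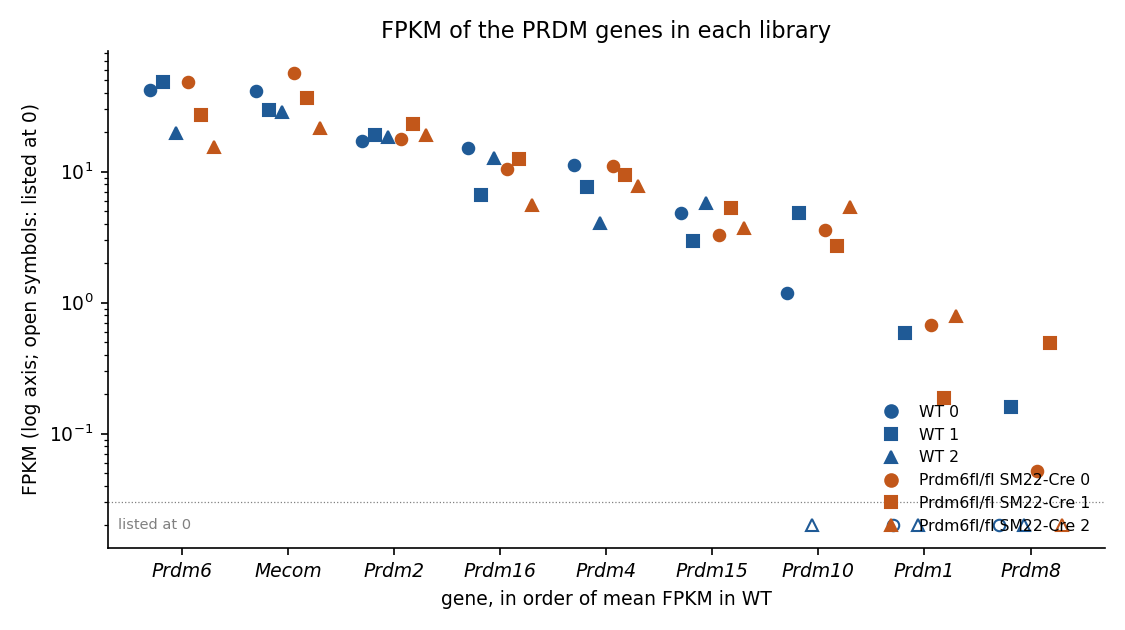
FPKM of the 9 PRDM genes in each of the 6 libraries, on a log axis, with the genes in order of mean FPKM in WT. Blue symbols are WT, orange symbols are *Prdm6fl/fl SM22-Cre*, the shape gives the library number, and open symbols on the lowest line are values listed at 0. The groups overlapped for every gene, *Prdm2* was the tightest, and the values listed at 0 belonged to *Prdm10*, *Prdm1*, and *Prdm8*.

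*Mecom* (chromosome 3 of GRCm38, 29951296 to 30548008, minus strand) was the most abundant of the 8 paralogs in every library. It encodes MDS1-EVI1 (PRDM3), which has the PR domain, from an upstream start, and EVI1, which lacks it, from a downstream start, and 1 FPKM value covers all of its transcripts. The 250 bases before each of the 2 starts of *Mecom* in RefSeq are given below in the direction of the gene, together with those of *Prdm16*, its nearest relative, and of *Prdm8*, the lowest gene of the 9. Which protein each start gives was not examined. The sequences are from RefSeq on GRCm38.p6, and capitals mark GC boxes (GGGCGG or its reverse complement CCGCCC), the short motif bound by SP1.
Mecom, upstream start, chr3:30509760-30510009, minus strand: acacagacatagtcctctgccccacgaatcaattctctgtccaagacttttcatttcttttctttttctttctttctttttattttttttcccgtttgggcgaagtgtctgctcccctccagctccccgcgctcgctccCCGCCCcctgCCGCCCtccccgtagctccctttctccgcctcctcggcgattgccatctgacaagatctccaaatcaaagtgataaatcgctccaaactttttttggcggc
Mecom, downstream start, chr3:30013205-30013454, minus strand: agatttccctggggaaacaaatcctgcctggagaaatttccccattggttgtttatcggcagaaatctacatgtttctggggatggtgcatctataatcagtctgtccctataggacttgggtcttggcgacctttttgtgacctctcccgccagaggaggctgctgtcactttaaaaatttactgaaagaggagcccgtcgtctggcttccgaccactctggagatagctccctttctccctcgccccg
Prdm16, chr4:154636874-154637123, minus strand: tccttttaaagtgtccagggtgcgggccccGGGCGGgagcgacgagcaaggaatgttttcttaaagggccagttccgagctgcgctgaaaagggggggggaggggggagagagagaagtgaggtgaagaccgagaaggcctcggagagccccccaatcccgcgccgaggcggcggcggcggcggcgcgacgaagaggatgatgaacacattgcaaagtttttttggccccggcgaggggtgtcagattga
Prdm8, chr5:98180619-98180868, plus strand: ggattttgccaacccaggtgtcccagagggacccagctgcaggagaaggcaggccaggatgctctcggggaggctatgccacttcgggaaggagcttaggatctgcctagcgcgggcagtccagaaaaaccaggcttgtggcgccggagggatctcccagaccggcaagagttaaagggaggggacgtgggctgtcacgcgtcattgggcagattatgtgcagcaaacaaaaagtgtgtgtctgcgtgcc
The RefSeq starts of *Mecom* are 497 kb apart. The upstream one lies 38.2 kb and that of *Prdm8* 13.7 kb inside the outer ends of these genes in GENCODE, and 0 GENCODE transcripts began at either, so other starts exist that are not shown. The upstream window held 2 GC boxes and 14 CpG dinucleotides, the downstream window 0 GC boxes and 8 CpG dinucleotides. *Prdm16* had 1 GC box and 22 CpG dinucleotides and *Prdm8* 0 and 11, whereas 32.7% of all 32851 RefSeq promoter windows held a GC box and the median window held 6 CpG dinucleotides. Each GC box contains a CpG and so adds to both counts. The CArG box, to which SRF binds in many smooth muscle promoters, was searched on both strands and occurred in 0 of the 11 windows of the 7 PRDM genes found in the RefSeq table and in 1.47% of all windows. Windows were not found there for *Prdm6* and *Prdm2*.

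*Mecom* measured 41.0, 29.2, and 28.3 FPKM in WT libraries 0, 1, and 2 and 56.1, 36.6, and 21.6 FPKM in the *Prdm6fl/fl SM22-Cre* libraries. Both the highest and the lowest of the 6 values were in the *Prdm6fl/fl SM22-Cre* group. The mean was 38.1 ± 17.3 FPKM (SD, n = 3) in that group, and the log2 fold change was 0.13 (standard error 0.35, 95% interval -0.69 to 0.94, adjusted p = 0.916 from limma). It was -0.20 without *Prdm6fl/fl SM22-Cre* library 0, the library with both *Xist* and *Ddx3y*, and 0.49 without *Prdm6fl/fl SM22-Cre* library 2. A gene on the opposite strand overlaps exons of *Mecom* (*Mecomos*), as also of *Prdm8*, *Prdm10*, and *Prdm16*, and whether the counting used strand is not stated.

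*Prdm16*, a regulator of brown fat identity that is also expressed in arteries and heart (chromosome 4 of GRCm38, 154316125 to 154636873, minus strand), was present at a moderate level. WT libraries 0, 1, and 2 held 15.1, 6.67, and 12.6 FPKM, and the *Prdm6fl/fl SM22-Cre* libraries held 10.4, 12.6, and 5.57 FPKM. The lowest value of each group was in the library with the highest heart muscle transcripts, WT library 1 and *Prdm6fl/fl SM22-Cre* library 2. The group means were 11.5 ± 4.35 FPKM and 9.52 ± 3.58 FPKM (SD, n = 3 each), and the log2 fold change was -0.27 (standard error 0.44, 95% interval -1.28 to 0.75, adjusted p = 0.849 from limma). Without both of those libraries it was -0.27 as well, and without *Prdm6fl/fl SM22-Cre* library 2 alone it was 0.08.

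*Prdm2*, which encodes the retinoblastoma-binding protein RIZ (chromosome 4 of GRCm38, 143107391 to 143212995, minus strand), was the steadiest gene of the 9. It measured 17.2, 19.0, and 18.4 FPKM in WT libraries 0, 1, and 2 and 17.8, 22.9, and 19.1 FPKM in the *Prdm6fl/fl SM22-Cre* libraries. Apart from the 22.9 of *Prdm6fl/fl SM22-Cre* library 1, all values lay within 2 FPKM of each other, and the groups overlapped. With means of 18.2 ± 0.91 FPKM and 19.9 ± 2.67 FPKM (SD, n = 3 each), the log2 fold change was 0.12 (standard error 0.20, 95% interval -0.35 to 0.60, adjusted p = 0.854 from limma). It stayed between 0.02 and 0.20 with each library left out in turn.

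*Prdm4*, a zinc finger protein known to bind the p75 neurotrophin receptor and to recruit the arginine methyltransferase PRMT5 (chromosome 10 of GRCm38, 85891966 to 85917142, minus strand), had FPKM values of 11.2, 7.60, and 4.05 in WT libraries 0, 1, and 2. In the *Prdm6fl/fl SM22-Cre* libraries they were 11.0, 9.38, and 7.74. The lowest value was that of WT library 2, the library with many genes listed at 0, and the WT values enclosed the *Prdm6fl/fl SM22-Cre* values. The log2 fold change was 0.40 (standard error 0.42, 95% interval -0.59 to 1.38, adjusted p = 0.775 from limma), and it was 0.007 without WT library 2.

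*Prdm15*, known as a regulator of pluripotent stem cells (chromosome 16 of GRCm38, 97791467 to 97851850, minus strand), had an FPKM of 4.82, 2.96, and 5.74 in WT libraries 0, 1, and 2 and of 3.30, 5.24, and 3.70 in the *Prdm6fl/fl SM22-Cre* libraries. The WT values again enclosed the *Prdm6fl/fl SM22-Cre* values. Its log2 fold change was -0.12 (standard error 0.46, 95% interval -1.20 to 0.97, adjusted p = 0.949 from limma). The sign turned without WT library 2, at 0.08, and without *Prdm6fl/fl SM22-Cre* library 0, at 0.02.

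*Prdm10*, a widely expressed zinc finger factor (chromosome 9 of GRCm38, 31280538 to 31381723, plus strand), had the largest difference of the 9 genes, and it rested on WT library 2. It was listed at 1.19, 4.79, and 0 FPKM in WT libraries 0, 1, and 2 and at 3.59, 2.72, and 5.36 FPKM in the *Prdm6fl/fl SM22-Cre* libraries. WT libraries 0 and 2 lay below every *Prdm6fl/fl SM22-Cre* library, whereas WT library 1 lay above 2 of them. The log2 fold change was 2.17 with a 95% interval from -1.03 to 5.36 (adjusted p = 0.681 from limma), and without WT library 2 it was 0.62. The size of this difference also depends on the value added before the logarithm, because of the 0, and was 1.03 with 1 FPKM in place of 0.1.

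*Prdm1* (chromosome 10 of GRCm38, 44437177 to 44528501, minus strand), which encodes BLIMP1, the factor of plasma cell differentiation, did not reach the mean of 1 FPKM required for the test. It was listed at 0, 0.583, and 0 FPKM in WT libraries 0, 1, and 2 and at 0.673, 0.185, and 0.797 FPKM in the *Prdm6fl/fl SM22-Cre* libraries. All values were under 1 FPKM and the groups overlapped (two-sided exact permutation test on the log2 scale, p = 0.2). *Prdm8* (chromosome 5 of GRCm38, 98167198 to 98188991, plus strand), a repressor known from neurons of the retina and cortex, was likewise below the limit. It was listed at 0, 0.159, and 0 FPKM in WT and at 0.0515, 0.491, and 0 FPKM in the *Prdm6fl/fl SM22-Cre* libraries (exact p = 0.7). For these genes no group mean is given, since 2 and 3 of the 6 values were 0.

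No PRDM gene that could be tested passed the test. Of the 7 with a mean of at least 1 FPKM, 0 had an adjusted p under 0.05 from limma, beside 0.00772% of the 12955 genes tested, and 0 had an unadjusted p under 0.05, beside 8.28% of them. Groups without overlap occurred for 0 of the 7 genes, beside 16.1% of tested genes. The log2 fold change was above 0 for 4 (*Prdm2*, *Prdm4*, *Prdm10*, and *Mecom*) and below 0 for 3 (*Prdm6*, *Prdm15*, and *Prdm16*), with a median of 0.12, beside 0.07 over all tested genes. Two-sided exact permutation tests of the 7 genes gave p between 0.3 and 0.9.

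The upper ends of these intervals give the largest rise of each paralog still inside its 95% interval. They were, as folds on the scale of FPKM + 0.1, 1.51 for *Prdm2*, 1.68 for *Prdm16*, 1.92 for *Mecom*, and 1.95 for *Prdm15*. The upper end was 2.60 for *Prdm4* and reached 41.1 for *Prdm10*. Added together, the 8 paralogs amounted to 90.6, 71.0, and 69.1 FPKM in WT libraries 0, 1, and 2 and to 103, 90.1, and 63.9 FPKM in the *Prdm6fl/fl SM22-Cre* libraries. The *Prdm6fl/fl SM22-Cre* group held the highest and the lowest of these sums. *Prdm6* made up 31.5%, 40.5%, and 22.3% of the sum over all 9 genes in WT and 32.1%, 23.1%, and 19.5% in the *Prdm6fl/fl SM22-Cre* libraries. The ratio of *Prdm6* to *Mecom* was 1.02, 1.66, and 0.700 in WT and 0.866, 0.739, and 0.715 in the *Prdm6fl/fl SM22-Cre* libraries, which lay within the range of WT.

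Most of these estimates depended on single libraries. When the fit was repeated without 1 of the 6 libraries at a time, *Prdm6* spanned log2 fold changes of -0.74 to 0.09, *Mecom* -0.20 to 0.49, and *Prdm16* -0.61 to 0.08. The span was 0.007 to 0.73 for *Prdm4* and 0.62 to 3.42 for *Prdm10*. These fits gave 0 adjusted p under 0.05 for the 7 genes.

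**Figure D2:**
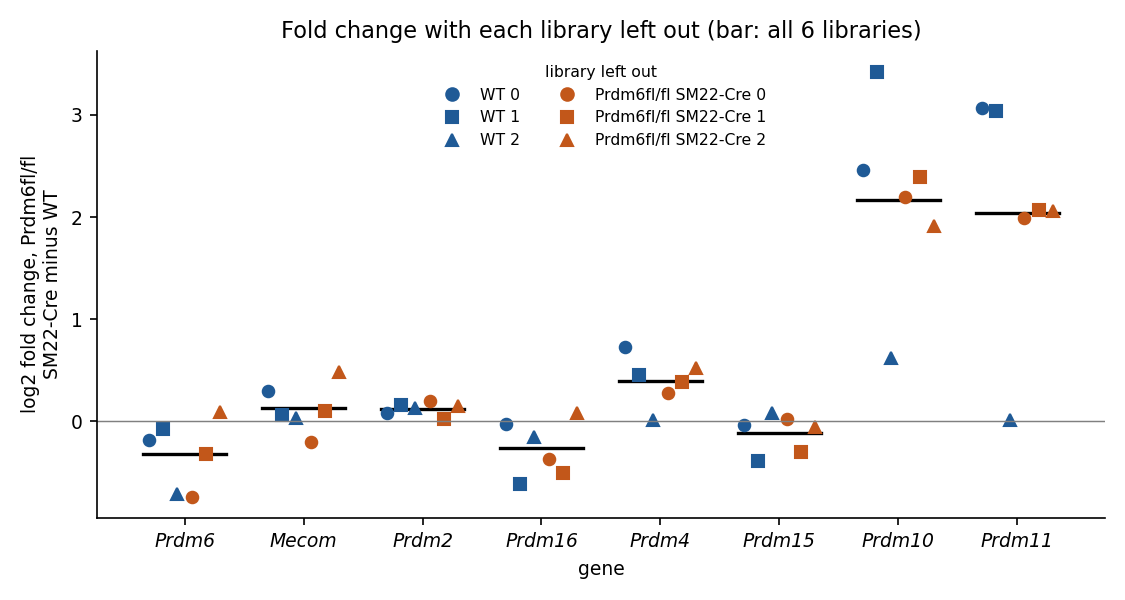
Log2 fold change of the 7 tested PRDM genes and of *Prdm11* with all 6 libraries (black bar) and with each library left out in turn (symbols, the color and shape giving the library left out). The point of *Prdm10* without WT library 2 falls to 0.62 and that of *Prdm11* to 0.01, whereas the points of *Prdm2* stay between 0.02 and 0.20.

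The spread between libraries of the same group differed widely among the PRDM genes. The SD within groups of log2(FPKM + 0.1) was 0.14 for *Prdm2* and 0.76 for *Prdm6*, beside a median of 0.50 over all tested genes. Among the 3368 tested genes within 2-fold of the mean FPKM of *Prdm6*, 92.1% had a smaller SD, and the median was 0.31. For *Mecom*, 81.5% of genes of like level had a smaller SD, and for *Prdm2* 5.70% did. *Prdm10* had an SD of 2.04, which includes the value of 0 in WT library 2.

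**Figure D3:**
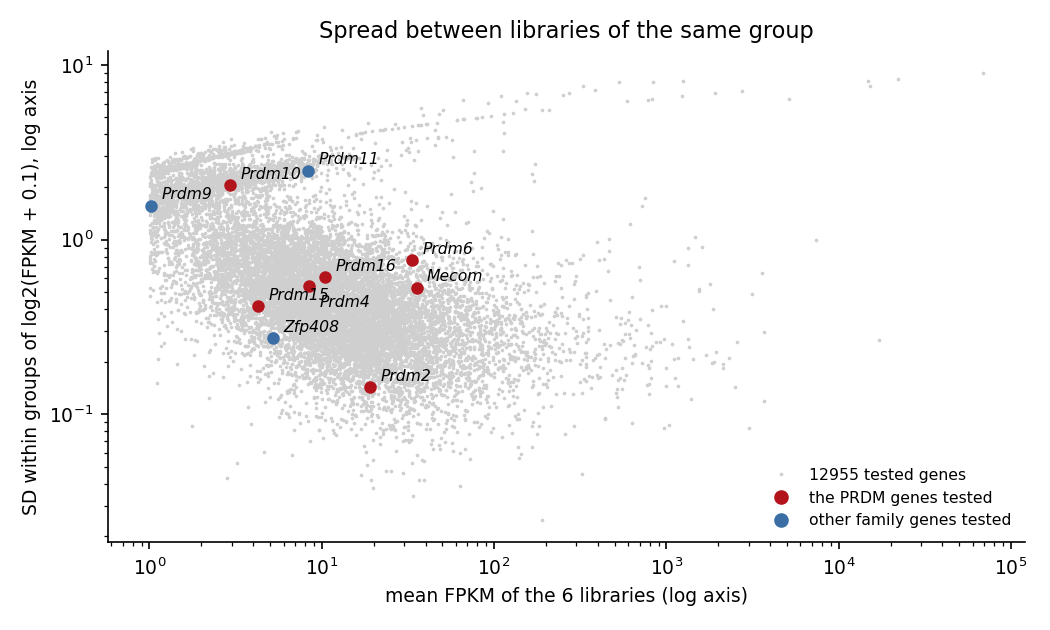
SD within groups of log2(FPKM + 0.1) against mean FPKM over the 6 libraries, on log axes, for the 12955 tested genes (gray), the 7 tested PRDM genes (red), and 3 further family genes (blue). *Prdm6* lies above 92.1% of the tested genes within 2-fold of its mean FPKM, and *Prdm2* above 5.70% of those within 2-fold of its own.

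Since *Prdm6* is known from SMCs and SMC transcripts were lower in the *Prdm6fl/fl SM22-Cre* libraries, each abundant PRDM gene was also set against the mean log2(FPKM + 0.1) of the 10 SMC markers of the same library. The log2 fold change was below 0 for all 10 markers, and 0 had an adjusted p under 0.05 from limma. For 5 of them the groups did not overlap, beside 1016 of 12955 tested genes lower without overlap and 16.1% in either direction. In its RNA-Seq of the DA, tested in another way, the paper named *Tagln* and *Myh11* among the most reduced transcripts. The figure legend there gives another number per group than the libraries used here. The paper also reported both genes lower by real-time PCR, and MYH11 lower by staining. On the log2 scale, *Prdm6* minus the mean of the 10 markers came to -2.64, -1.54, and -2.56 in WT (libraries 0, 1, and 2) and to -0.85, -1.49, and -1.61 in the *Prdm6fl/fl SM22-Cre* libraries. Only WT library 1 reached the range of the *Prdm6fl/fl SM22-Cre* libraries. For *Mecom* the difference was -2.66, -2.27, and -2.05 in WT and -0.64, -1.05, and -1.13 in the *Prdm6fl/fl SM22-Cre* libraries, without overlap. It ran from -4.39 to -3.20 in WT and from -3.06 to -2.59 in the *Prdm6fl/fl SM22-Cre* libraries for *Prdm16*, again without overlap. For *Prdm2* it ran from -3.91 to -2.67 and from -2.30 to -1.30, also without overlap. All 4 genes are set against the same markers, which themselves separate the groups, so these values are not independent of each other and are given without a test. A gene unchanged across the libraries would separate on this measure through the markers alone. The share of all genes that do so was not computed. *Mecom* and *Prdm16* were not set against endothelial markers. The summed FPKM of 8 endothelial genes was 364 to 508 in WT and 421 to 684 in *Prdm6fl/fl SM22-Cre* libraries. For 7 genes of arterial endothelium it was 144 to 198 and 151 to 243, so the groups overlapped in both sums. Per 1000 FPKM of *Tagln*, the gene whose promoter drives the Cre, *Prdm6* measured 30.9, 63.6, and 28.9 FPKM in WT and 71.8, 58.9, and 71.3 FPKM in the *Prdm6fl/fl SM22-Cre* libraries, with WT library 1 inside their range. Per 1000 FPKM of *Myh11*, the smooth muscle myosin heavy chain, it measured 55.7, 171, and 64.3 FPKM and 329, 173, and 235 FPKM, which did not overlap, although WT library 1 lay just below the lowest *Prdm6fl/fl SM22-Cre* value. *Tagln* and *Myh11* were themselves lower in every *Prdm6fl/fl SM22-Cre* library than in any WT library. Both ratios would therefore be higher there for an unchanged gene as well, and they say nothing on *Prdm6* alone.

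**Figure D4:**
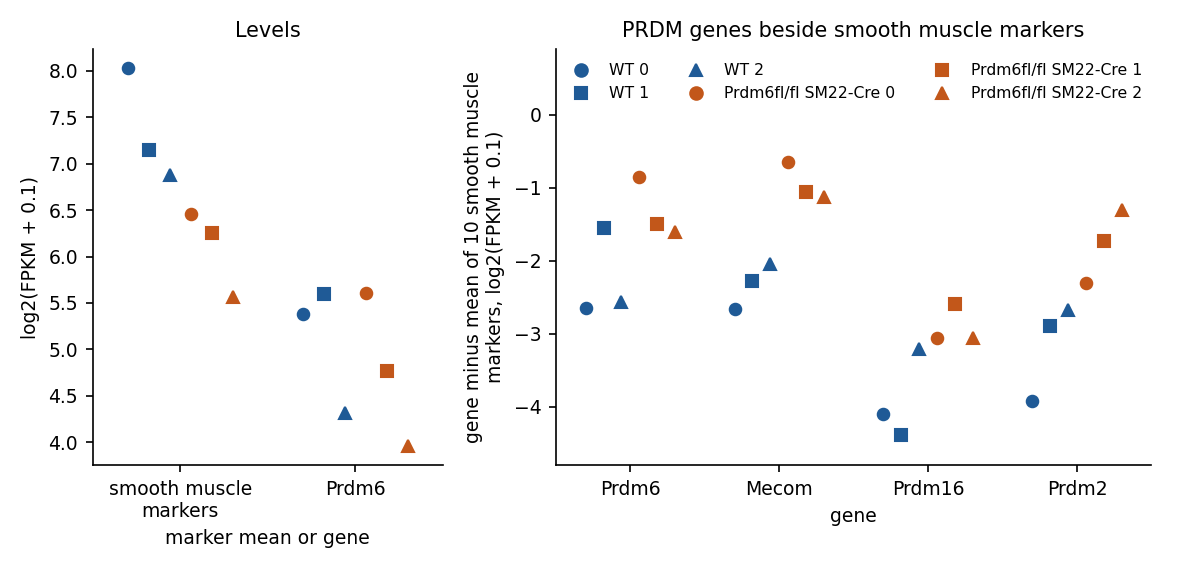
Left, mean log2(FPKM + 0.1) of 10 SMC markers and the log2(FPKM + 0.1) of *Prdm6* in each library. Right, *Prdm6*, *Mecom*, *Prdm16*, and *Prdm2* minus the marker mean of the same library. The markers separate the groups and *Prdm6* does not. On the right the groups overlap for *Prdm6* and not for the other 3 genes.

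Of 6 further genes of the PRDM family, 3 were tested, with 0 adjusted p under 0.05 from limma (0.00772% of all tested genes) and 0 unadjusted p under 0.05 (8.28% of all tested genes). *Prdm11* stood at 9.61 to 10.8 FPKM in 5 libraries and at 0.0492 FPKM in WT library 2. Its log2 fold change of 2.04 (adjusted p = 0.705 from limma) was 0.01 without that library. *Zfp408* ranged from 3.86 to 6.62 FPKM, with a log2 fold change of 0.16 (adjusted p = 0.901 from limma). *Prdm9*, the meiotic recombination factor, was listed between 0 and 2.0 FPKM (log2 fold change -1.56, adjusted p = 0.745 from limma). *Prdm12*, *Prdm13*, and *Prdm14*, known from sensory neurons, the neural tube, and germ cells, were listed at 0 in all 6 libraries.

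Enzymes and corepressors known to work with PRDM proteins or to methylate lysine 20 of histone H4 formed a list of 17 genes, all of them tested. Of these, 0 had an adjusted p under 0.05 from limma, 1 had an unadjusted p under 0.05, beside 8.28% of all tested genes, 8 had a log2 fold change above 0, and 9 had one below 0 (median -0.01). *Cbx1*, which encodes heterochromatin protein HP1β, had the lowest log2 fold change. It measured 41.6, 32.7, and 55.6 FPKM in WT libraries 0, 1, and 2 and 24.1, 25.4, and 26.7 FPKM in the *Prdm6fl/fl SM22-Cre* libraries. Every *Prdm6fl/fl SM22-Cre* value lay below every WT value, and the log2 fold change was -0.74 (standard error 0.23, 95% interval -1.26 to -0.21, unadjusted p = 0.0126, adjusted p = 0.540 from limma). The groups also did not overlap for *Ehmt1*, a histone H3 methyltransferase (-0.40, adjusted p = 0.611 from limma), and *Ctbp1*, a corepressor that binds EVI1 and PRDM16 (-0.38, adjusted p = 0.611 from limma), both named after their values were seen. The 3 genes without overlap were all lower in *Prdm6fl/fl SM22-Cre* and made up 3 of 17. Of tested genes, 16.1% did not overlap in either direction, and 1016 of 12955 were lower without overlap. The highest log2 fold change was that of *Setdb1*, a histone H3 methyltransferase, at 0.28 (standard error 0.37, adjusted p = 0.813 from limma).

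The genes whose levels followed the PRDM genes most closely were sought over the 6 libraries among 6327 genes with a mean of at least 10 FPKM. The closest to *Prdm6* by Pearson's r of log2(FPKM + 0.1) were *Hipk2* (r = 0.98), *Ensa*, *Zc3h7b*, *Fzd1*, and *Six5* (r = 0.97), and 47 genes had an r over 0.9. *Hipk2* had 37.0, 38.3, and 27.9 FPKM in WT and 38.1, 31.5, and 22.6 FPKM in the *Prdm6fl/fl SM22-Cre* libraries. The closest to *Prdm16* were *Eif4ebp2* (r = 0.99), *Eef2k*, *Hebp1*, *F2rl1*, and *Spryd3*, which, like *Prdm16*, were low in WT library 1 and *Prdm6fl/fl SM22-Cre* library 2. The closest to *Mecom* were *Arhgef2* (r = 0.99), *Itfg3*, *Foxj3*, *Rnf146*, and *4930523C07Rik*. An r over 0.9 was reached by 36 genes for *Prdm16* and by 50 for *Mecom*. How many genes would reach it for an unrelated gene was not computed, so these counts do not show a link to the PRDM genes. With 6 points from the same libraries, which share their depth and cell makeup, the values of r are descriptions without a test.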

How the data were processed

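RNA was extracted with the miRNeasy Micro Kit from DAs at E17.5, in 3 WT and 3 *Prdm6fl/fl SM22-Cre* libraries grouped by their titles. The authors trimmed the reads, aligned them to mm10 with TopHat2, and deposited FPKM values made with Cufflinks and Cuffdiff. Versions, annotation, and strandedness are not given in the sources used here. FPKM values hold no read counts, so count tests and counting intervals were not used.

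Genes with a mean of at least 1 FPKM over the 6 libraries were tested on log2(FPKM + 0.1) with limma 3.58.1 in R 4.3.3 (mean-variance trend, two-sided, Benjamini-Hochberg over 12955 genes, threshold 0.05). Cuffdiff needs aligned reads and was not repeated. Whether libraries came from separate embryos is not stated for each, so p-values measure only the spread between these libraries. The fit was also run on simulated normal values, drawn independently for each gene. These held no failed estimates and no differences in cell makeup, so that run does not bear on either. Leave-one-out fits kept the same genes. Alternatives covered the pseudocount, filter, scaling, variance trend, and a replicate block. The fit without the libraries highest in heart muscle transcripts was chosen after the data were seen.

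The PRDM genes and lists were chosen with earlier results of these data known. All 9 PRDM genes are named, further family genes by their range, from the partner list the highest and lowest change, and the 5 genes most like *Prdm6*, *Prdm16*, and *Mecom*. Positions are from GENCODE vM21, and promoter windows from RefSeq. A listed gene is not reported here.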

Additional observations from a re-analysis of the deposited data

How the results depend on the processing

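Over 16 alternative settings, 0 of the PRDM genes fitted in each (7 in most, 9 with the looser filters, and 5 with a mean of at least 5 FPKM) had an adjusted p under 0.05 from limma, and the lowest adjusted p of any was 0.484 (*Prdm10* without WT library 1). *Prdm2*, *Prdm4*, and *Prdm10* kept the sign of their log2 fold change in every setting that could be fitted. *Prdm10* and *Prdm15* have no value with a mean of at least 5 FPKM required. With 1 library left out at a time, log2 fold changes lay from -0.74 to 0.09 (0.085) for *Prdm6*, -0.39 to 0.08 (0.082) for *Prdm15*, with 0.019 without *Prdm6fl/fl SM22-Cre* library 0, -0.61 to 0.08 (0.075) for *Prdm16*, -0.20 to 0.49 for *Mecom*, and -0.13 to 0.57 for *Setdb1*. Without the pair of libraries highest in heart muscle transcripts, that of *Prdm6* was 0.34 (0.336). Over all genes, 1 gene was called, and 2 with no mean-variance trend, 2 without the pair of libraries highest in heart muscle transcripts, and 1 to 2 with each library left out (2 without WT library 1 and 2 without *Prdm6fl/fl SM22-Cre* library 2). The causes were not tested.

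With the replicate numbers of the titles as a replicate block, 1 gene was called over all genes and 0 of the PRDM genes, and *Prdm6* had a log2 fold change of -0.32 (adjusted p = 0.724 and standard error 0.26 from limma). Deviations from the group means of same-numbered libraries correlated at 0.12, -0.08, and -0.009, so the main fit did not treat the numbers as pairs. These correlations over all genes cannot settle whether same-numbered libraries were paired, for example by litter. Without a filter, which admits *Prdm1* and *Prdm8*, their log2 fold changes were 1.62 and 0.60 (adjusted p = 0.982 and 1.0 from limma). These fitted values rest on libraries listed at 0. Total depth is unknown, so what it limits could not be set, and values of *Prdm1*, *Prdm8*, and *Prdm10* listed at 0 may be failed estimates.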
